A study of Danio rerio with 2 samples.

Results

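Genes of transmitter receptors were described in olig2+ cells of the zebrafish trunk. They were taken by their symbols, as those that begin like the subunits of AMPA (gria), NMDA (grin1, grin2 or grin3), kainate (grik), delta (grid), metabotropic glutamate (grm and a digit), GABA-A (gabr), GABA-B (gabbr), glycine (glra or glrb) and nicotinic acetylcholine (chrn) receptors. In all, 94 of 27771 gene identifiers had such a symbol. Of these, 22 were nicotinic, 21 GABA-A, 12 NMDA, 12 metabotropic glutamate, 8 AMPA, 7 glycine, 4 kainate, 3 delta and 3 GABA-B. The remaining 2 are named for proteins that bind the delta receptor and are no subunits themselves. A gene was described at a stage where the neuron, oligodendrocyte lineage and radial glia classes held 50 or more of its RNA molecules, each counted by its unique molecular identifier (UMI). This was so for 62 genes at 60 hpf (hours post fertilization) and for 61 at 28 hpf, with 58 at both stages, 65 at either and 29 at neither. All cells came from Tg(olig2:dsRed) embryos, in which the regulatory element of olig2, a transcription factor of motor neuron and oligodendrocyte progenitors, drives the red protein. The protein lasts into the offspring of the progenitors, so a sorted cell need not express olig2 itself. Trunks were pooled at 60 hpf and at 28 hpf, and each stage gave 1 library from sorted cells by 10× Genomics 3′ sequencing. With 1 library per stage there was no replicate and no test, and every interval is a 95% interval that covers counting error only.

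Fast transmission in the spinal cord runs through receptors that are themselves ion channels. Glutamate opens AMPA, kainate and NMDA receptors, which excite the cell, and NMDA receptors need the GluN1 subunit (grin1) beside GluN2 (grin2) or GluN3 (grin3) partners. Glycine and GABA open chloride channels built from alpha subunits with beta subunits, and in most GABA-A receptors a gamma subunit, and the beta subunit of the glycine receptor ties it to the scaffold gephyrin. Acetylcholine, the transmitter of motor neurons, opens nicotinic receptors, of which muscle and neurons use different subunits. Metabotropic glutamate and GABA-B receptors act more slowly through G proteins, and delta receptors, although related to AMPA receptors, bind cerebellins at synapses. Many of these genes have duplicates in zebrafish, named a and b.

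At 60 hpf, 5517 cells with at least 1000 genes were kept, each with 6809 UMIs at the median. At 28 hpf 8390 cells were kept, with 7376 at the median. The libraries shared 24 cell barcodes as deposited and 16 among kept cells. Cells were clustered without any of the receptor genes and named from marker lists, with -like for a rebuilt class. The 60 hpf library held 548 MN_2-like and 2103 MN_1-like motor neurons, 320 pri-MN-like (early motor neuron) cells, 342 V2b/KA-like and 250 V3-like interneurons, 318 OPC/OL-like cells of the oligodendrocyte lineage, 115 radial glia-like cells and 94 pMN progenitors. The 28 hpf library held 700 MN_2-like, 1410 pri-MN-like, 1534 V2b/KA-like and 77 V3-like cells and 2719 pMN progenitors, and no MN_1-like or OPC/OL-like cell. Of the pri-MN-like cells at 60 hpf, 311 were in a cluster led by kif26ab and alcama that had no cell at 28 hpf. None of the 10 leading genes of that cluster was a pri-MN marker. A level below is the sum of a gene's UMIs over a class per 10000 UMIs of that class. The 14 MN_2 markers, among them tac1, chga and calb2b, summed to 217 per 10000 in MN_2-like cells at 60 hpf and 194 at 28 hpf, against 38.9 in MN_1-like cells. The 17 MN_1 markers set these classes less apart, at 115 in MN_1-like and 80.0 in MN_2-like cells at 60 hpf. The 12 V2b/KA markers, among them gata3 and gad1b, summed to 301 and 109 in V2b/KA-like cells, at 60 hpf and at 28 hpf. In MN_2-like cells they summed to 0.219 and 1.37. The 13 OPC/OL markers summed to 68.3 in OPC/OL-like cells, against 1.1 in MN_1-like cells. Hemoglobin genes took 21.1% of all UMIs at 60 hpf and 15.8% at 28 hpf. Their share was between 0.257% and 0.407% in each neuron class at 60 hpf and 5.04% in OPC/OL-like cells.

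Droplets also hold free RNA, so each level was read beside that of cells that should lack these genes. Those were the erythroid-, skin-, mesenchyme- and immune-like cells pooled, in which hemoglobin genes took 66.4% of all UMIs at 60 hpf and 58.7% at 28 hpf. Hemoglobin was therefore left out of their totals, a choice added after the data were seen. The median background level of a described gene was then 0.0181 per 10000 at 60 hpf and 0.0128 at 28 hpf, and the highest, that of gria4a, was 0.420 at 60 hpf and 0.321 at 28 hpf. At 60 hpf the interval of the level lay above the background interval for 49 of 62 genes in MN_2-like, 47 in V3-like, 41 in MN_1-like and 34 in V2b/KA-like cells. It did so for 15 in pri-MN-like, 15 in OPC/OL-like, 11 in radial glia-like cells and 3 in pMN progenitors. At 28 hpf the counts were 51 of 61 in MN_2-like, 52 in V2b/KA-like, 38 in V3-like, 25 in pri-MN-like cells and 9 in pMN progenitors. With hemoglobin kept in the totals the counts were larger, such as 55 in MN_2-like, 27 in OPC/OL-like cells and 11 in pMN progenitors at 60 hpf, and 30 in pMN progenitors at 28 hpf. Against the 230 cells at 60 hpf that were not erythroid-like they were 48 in MN_2-like and 16 in OPC/OL-like cells and 3 in pMN progenitors. At 28 hpf there were 27 such cells, with wide intervals, and the counts against them were 34 in MN_2-like and 18 in V2b/KA-like cells and 0 in pMN progenitors. Larger classes have narrower intervals, so these counts also follow the number of UMIs in a class. They were made for the receptor genes only, without the share over all genes. Whether they are particular to receptor genes was therefore not tested. Genes were described without their progenitor UMIs, so genes found mainly in progenitors could be missing from the progenitor counts.

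Receptor genes took a larger share of the UMIs in MN_2-like cells than in the other classes. The 94 genes together reached 65.4 UMIs per 10000 in MN_2-like cells at 60 hpf and 51.3 at 28 hpf. These are shares of the UMIs of a class and not amounts per cell. At 60 hpf they reached 28.0 in MN_1-like, 27.5 in V2b/KA-like, 23.5 in V3-like, 9.82 in pri-MN-like, 7.87 in OPC/OL-like and 5.62 in radial glia-like cells. At 28 hpf they reached 23.7 in V3-like, 15.9 in V2b/KA-like and 6.84 in pri-MN-like cells. Of the 62 genes described at 60 hpf, 31 had their highest level in MN_2-like cells, 25 of them with an interval above that of the next class, 16 in V2b/KA-like cells, 12 of them with such an interval, 6 in V3-like and 6 in MN_1-like cells. At 28 hpf, 37 of 61 were highest in MN_2-like, 12 in V3-like and 11 in V2b/KA-like cells. Of these, 28, 3 and 7 had an interval above that of the next class. The highest class was the same at both stages for 37 of the 58 genes described at both, for 24 of them MN_2-like and for 9 V2b/KA-like. The highest class was not counted over all genes, so whether these counts are particular to receptor genes was not tested. The map of levels by class shows 61 of the 65 genes.

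**Figure D1:**
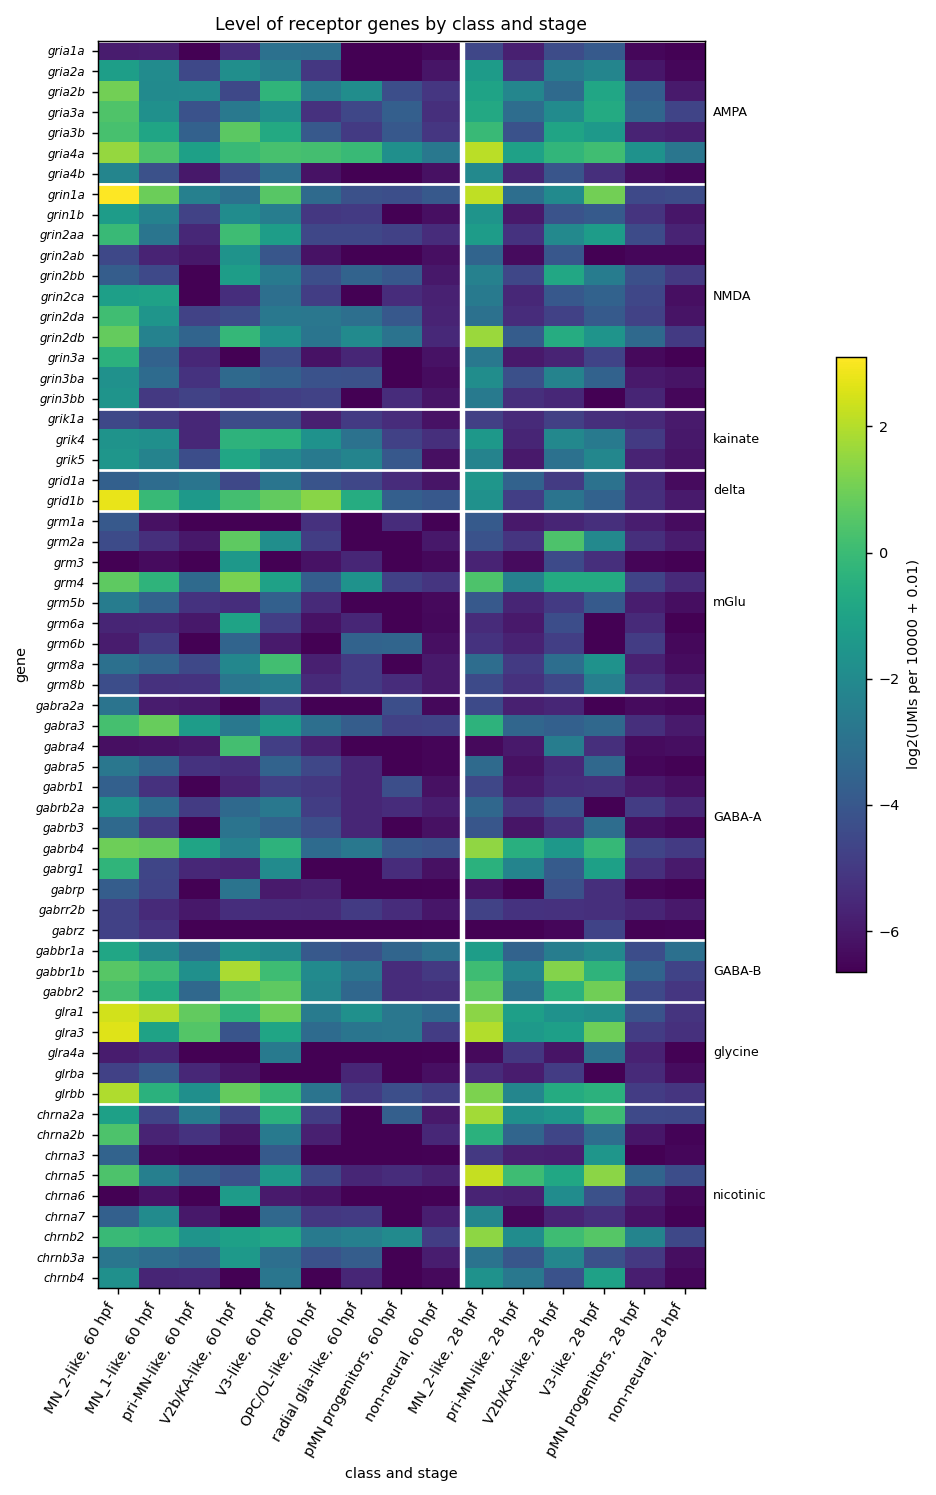
Level of 61 of the 65 receptor genes described at either stage. Rows are genes by family (mGlu, metabotropic glutamate), columns are classes at 60 hpf, left of the white line, and at 28 hpf, and color gives log2 of the UMIs per 10000 plus 0.01. The MN_2-like columns are the brightest over most families, and grm2a, gabra4 and chrna6 stand out in the V2b/KA-like columns.

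Deeper cells show more genes, so cells were thinned to 2000 UMIs each before subunits were counted per cell, and shallower cells were left out. After thinning, an MN_2-like cell had UMIs of 7.94 ± 3.39 receptor genes at 60 hpf (mean ± SD over 524 cells) and of 7.30 ± 3.87 at 28 hpf (668 cells). A V2b/KA-like cell had 4.48 ± 2.35 at 60 hpf (335 cells) and 2.90 ± 2.25 at 28 hpf (1522 cells), and an MN_1-like cell at 60 hpf 4.07 ± 2.35 (2011 cells). The mean was 3.33 in V3-like, 1.43 in pri-MN-like, 1.03 in OPC/OL-like and 0.894 in radial glia-like cells at 60 hpf, and 0.410 in pMN_1-like cells at 28 hpf. It was 0.544 in mesenchyme-like cells at 60 hpf (114 cells), which should lack most of these genes, and 0.208 and 0.148 in erythroid-like cells at 60 and 28 hpf, where hemoglobin took 78.9% and 59.4% of the UMIs. The mean of the progenitors was below that of the mesenchyme-like cells of the other library. Without thinning the means were 13.9 and 14.6 in MN_2-like cells at 60 and 28 hpf and 10.8 in MN_1-like cells. The spread is over cells of 1 library and is no replicate error. A thinned cell with a UMI of any glycine receptor gene made up 87.4% of MN_2-like, 60.3% of MN_1-like and 39.1% of V2b/KA-like cells at 60 hpf, against 6.14% of mesenchyme-like and 2.45% of erythroid-like cells. For NMDA receptor genes the shares were 84.2%, 42.6% and 47.8% in the same classes, against 7.89% of mesenchyme-like cells. For metabotropic glutamate receptor genes the V2b/KA-like share was 54.9% and the MN_2-like share 28.8%, against 4.39% of mesenchyme-like cells. For nicotinic genes MN_2-like cells gave 53.4% at 60 hpf and 83.8% at 28 hpf, against 6.14% of mesenchyme-like cells at 60 hpf and 9.73% of floor plate-like cells at 28 hpf, where mesenchyme-like cells were too few. The median depth before thinning was 4922 UMIs in MN_2-like cells at 60 hpf, 8627 in mesenchyme-like and 31211 in erythroid-like cells.

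Neurons of all classes were first set against pMN progenitors. Here and below a gene was called when its level differed by 2-fold or more, the interval of the ratio left out 0 on the log2 scale and both classes together held 50 or more UMIs. At 60 hpf, where the 94 progenitors held few UMIs of most of these genes, 38 of the 61 receptor genes tested were higher in neurons and 1 was lower. Of all 13838 genes tested, 23.9% were higher and 14.5% lower. The median log2 ratio was 1.73 over the receptor genes and 0.30 over all genes. At 28 hpf, with 2719 progenitors, 54 of 67 were higher and 2 were lower, beside 25.9% and 17.2% of 15755 genes, with medians of 3.32 and 0.17. At 60 hpf the GABA-B subunit gabbr1b was at 1.19 (1.15 to 1.22) in neurons, with 1 UMI in the progenitors, a log2 ratio of 6.46 (3.98 to 11.76). For grin1a the levels were 2.28 in neurons and 0.0404 in progenitors, with a log2 ratio of 5.82 (4.27 to 8.09), and for glra1 3.72 and 0.135, with 4.79 (3.91 to 5.85). In non-neural cells without hemoglobin at 60 hpf, grin1a was at 0.164 and glra1 at 0.284, above their progenitor levels. The log2 ratios of gabra3, gabbr2, grm4, grin2ca, gabrb4, glrbb and grid1b were between 4.46 (grid1b) and 5.77 (gabra3). The 1 gene that was lower was grm6b, on 73 UMIs in neurons and 6 in progenitors, and it was not called with at most 4000 genes and 20% mitochondrial UMIs per cell or with all variable genes in the clustering. An unnamed cluster of 447 cells at 60 hpf, with gfap among its leading genes, was closest to pMN_1 by its markers. It was left unnamed because more radial glia markers than pMN_1 markers were among its leading genes. With it in place of the pMN classes, added after the data were seen, 54 receptor genes were higher in neurons and 1 lower, of which 37 and 1 were also called above. No share over all genes stands beside these counts, so whether they are particular to receptor genes was not tested. At 28 hpf grm2a, a receptor that lowers cyclic AMP through its G protein, was at 0.705 (0.676 to 0.735) in neurons and 0.0148 (0.0102 to 0.0207) in progenitors, a log2 ratio of 5.58 (5.08 to 6.12). The AMPA subunit gria3b was at 0.457 in neurons and 0.00984 in progenitors, the glycine receptor subunits glra3 and glrbb at 1.04 and 0.783 in neurons and 0.0228 and 0.0228 in progenitors, and the GluN1 gene grin1a at 0.95 in neurons and 0.0344 in progenitors. Their folds ran between 27.6 for grin1a and 46.4 for gria3b. In non-neural cells without hemoglobin at 28 hpf, gria3b was at 0.0187, glra3 at 0.0373, glrbb at 0.0442, grin1a at 0.0914 and grm2a at 0.0167. The progenitor levels of these genes were thus not above background, and their folds rest on counts near it. The folds of gabra4, chrna2b, gria2a, grin2ab, gabrb4, grin3ba and gabrp were between 26.8 (gabrp) and 40.4 (gabra4). All 7 AMPA, 3 delta and 3 GABA-B genes tested were higher in neurons at 28 hpf, as were 9 of 11 NMDA, 10 of 13 GABA-A and 9 of 10 nicotinic genes. The 2 genes that were lower in neurons at 28 hpf were gabra6a, at 0.00884 in neurons and 0.0250 in progenitors, and grm2b, at 0.0136 and 0.0393. The non-neural cells of that library held 71 UMIs of gabra6a among 2.46e+07 in all, and the progenitors 56 among 2.24e+07. The progenitor level of gabra6a was thus not above that of cells that should lack it. The AMPA subunit gria4a had the most UMIs of any receptor gene in progenitors at 28 hpf, at a level of 0.301 (0.279 to 0.325), against 0.321 (0.287 to 0.358) in non-neural cells without hemoglobin, with intervals that overlap, and it was 4.38-fold higher in neurons.

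MN_2-like and MN_1-like cells are both motor neurons of the 60 hpf library, so this contrast lies within 1 library. Of 54 receptor genes tested, 30 were higher in MN_2-like cells and 2 were lower. Of all 12849 genes, 13.9% were higher and 13.2% lower, and the median log2 ratio was 1.12 over the receptor genes and -0.02 over all genes. By family, 8 of 10 NMDA, 5 of 6 AMPA, 6 of 12 GABA-A, 4 of 7 nicotinic and 2 of 4 glycine receptor genes were higher. No kainate gene of 3 was called. MN_2-like cells had a median of 4922 UMIs and MN_1-like cells 7121.

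Among the NMDA receptor genes, grin1a, one of 2 genes of the GluN1 subunit that every NMDA receptor needs, was at 8.57 (8.25 to 8.91) UMIs per 10000 in MN_2-like cells and 1.89 (1.83 to 1.94) in MN_1-like cells, a log2 ratio of 2.18 (2.11 to 2.25). The duplicate grin1b was at 0.412 and 0.188, and 2.2-fold higher in MN_2-like cells. Of the genes for glutamate-binding GluN2 subunits, grin2db was at 1.71 (1.56 to 1.86) in MN_2-like and 0.190 (0.174 to 0.209) in MN_1-like cells, grin2aa at 0.953 and 0.130, and grin2da at 1.08 and 0.332. These are log2 ratios of 3.16 (2.98 to 3.35) for grin2db, 2.88 (2.64 to 3.11) for grin2aa and 1.70 (1.51 to 1.89) for grin2da. In contrast, grin2ca was at 0.445 (0.373 to 0.527) in MN_2-like and 0.473 (0.446 to 0.501) in MN_1-like cells, a log2 ratio of -0.09 (-0.36 to 0.17) that spans 0. The GluN3 genes, whose subunits lower calcium entry in mammals, all passed the rule, with grin3a at 0.761 and 0.0727, grin3bb at 0.322 and 0.0208 and grin3ba at 0.292 and 0.0956. Their folds were 10.5, 15.5 and 3.06. Among the AMPA receptor genes gria2b differed most, at 2.05 (1.89 to 2.21) in MN_2-like and 0.244 (0.225 to 0.265) in MN_1-like cells, 8.37-fold higher, whereas its duplicate gria2a, at 0.435 and 0.249, was not called. The folds of gria4b, gria3a, gria3b and gria4a were 4.75, 4.68, 2.32 and 2.23. The delta receptor gene grid1b was at 6.76 (6.47 to 7.06) in MN_2-like and 0.928 (0.890 to 0.967) in MN_1-like cells, 7.28-fold higher. The metabotropic gene grm4 was 2.02-fold higher in MN_2-like cells, at 1.59 and 0.791.

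Among the genes for inhibitory receptors, the glycine receptor alpha subunit gene glra3 was at 6.23 (5.95 to 6.52) in MN_2-like and 0.480 (0.453 to 0.508) in MN_1-like cells, 13.0-fold higher. The other main alpha gene, glra1, was at 5.40 (5.14 to 5.67) and 4.02 (3.94 to 4.10), a log2 ratio of 0.43 (0.35 to 0.50). Both classes thus held glra1, and they differed in glra3. The beta gene glrbb was 5.21-fold higher in MN_2-like cells, at 3.86 and 0.741. Its duplicate glrba, with 8 and 141 UMIs, was one of the 2 genes that were lower, at a log2 ratio of -1.12 (-2.36 to -0.10). Of the GABA-A genes, gabrg1 was at 0.824 (0.724 to 0.933) in MN_2-like and 0.0311 (0.0245 to 0.0389) in MN_1-like cells, 26.5-fold higher. gabra2a was 18.8-fold higher, on 37 and 16 UMIs. The alpha and beta genes with the most UMIs in MN_1-like cells, gabra3 and gabrb4, were at 1.16 and 1.90 in MN_2-like cells and at 1.77 and 1.72 in MN_1-like cells, and neither was called.

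The nicotinic genes held the steepest difference between the motor neuron classes. chrna2b, which encodes a neuronal alpha subunit, was at 1.29 (1.17 to 1.43) in MN_2-like cells, from 389 UMIs, and at 0.00981 (0.00628 to 0.0146) in MN_1-like cells, from 24 UMIs in a class with many more cells. Its log2 ratio was 7.04 (6.45 to 7.70), which is 132-fold. In non-neural cells without hemoglobin it was at 0.0331 (0.0207 to 0.0501), above the level in MN_1-like cells. chrnb4, chrna2a and chrna5, which codes for an accessory subunit, were also higher in MN_2-like cells, with log2 ratios of 4.81 (4.15 to 5.51), 3.92 (3.50 to 4.35) and 2.88 (2.68 to 3.08). chrnb2, the common neuronal beta subunit, was at 0.973 in MN_2-like and 0.804 in MN_1-like cells and was not called. The other gene that was lower in MN_2-like cells was chrna7, whose subunit forms receptors without partners. It was at 0.0698 (0.0432 to 0.107) in MN_2-like and 0.251 (0.231 to 0.271) in MN_1-like cells, a log2 ratio of -1.84 (-2.55 to -1.22).

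**Figure D2:**
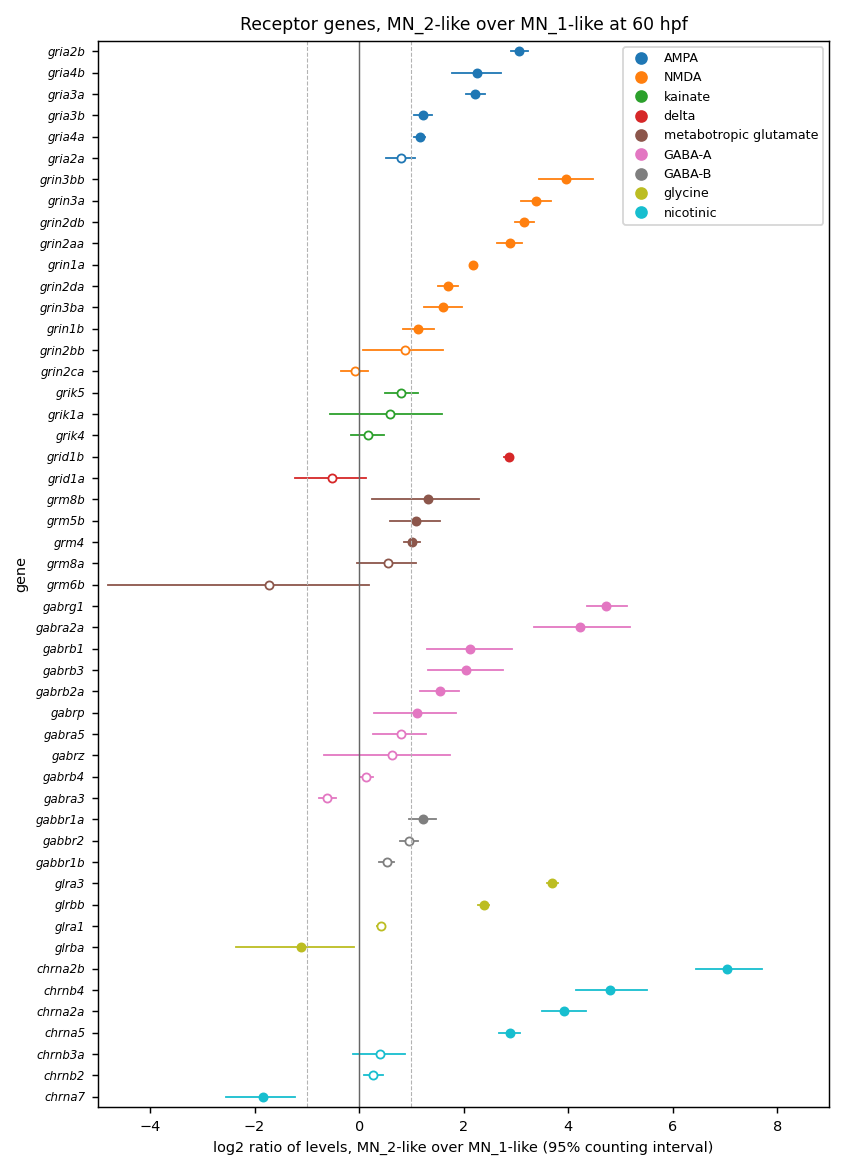
Log2 ratio of levels, MN_2-like over MN_1-like cells at 60 hpf, for 50 of the 54 receptor genes tested. Points are ratios, lines the 95% counting intervals, filled points the 32 genes called, dashed lines 2-fold, and colors the families. Most filled points lie to the right of 0, led by chrna2b at 7.04, and glrba and chrna7 lie to the left.

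The classes were not uniform. At 60 hpf the MN_2-like class held mainly a cluster of 376 cells led by col19a1 and a cluster of 155 cells led by hoxb13a, a gene of posterior body levels. gria2b was at 2.65 (2.44 to 2.88) in the col19a1-led cluster and 0.238 (0.139 to 0.381) in the hoxb13a-led one, which was close to the MN_1-like level above. glra1 was at 6.67 and 1.33 in these clusters, and glra3 at 5.19 and 10.1, so glra1 was lower and glra3 higher in the hoxb13a-led one. grin2da was at 1.39 and 0.252. chrnb2 went the other way, at 0.242 and 2.47, as did chrna5, at 0.808 and 2.79. grin1a and chrna2b were high in both, at 8.38 and 1.18 in the col19a1-led cluster and 6.84 and 1.74 in the hoxb13a-led one. In the MN_1-like class, grin1a was at 3.72 in the 864 cells of the cluster led by gfra1a and nefmb and at 1.49 in the 1239 cells of the cluster led by bmp16 and esrrga, and grid1b was at 0.40 and 1.04. The 10 leading genes of the gfra1a-led cluster held 2 MN_1 markers and 2 MN_2 markers, the latter nefmb and neflb.

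MN_2-like cells were found at both stages, so their receptor genes were compared between 60 hpf and 28 hpf. This is also a comparison between 2 libraries, and stage and library cannot be told apart. Of 47 receptor genes tested, 12 were higher at 60 hpf and 7 lower. Of all 9067 genes, 16.7% were higher and 7.4% lower, and the median log2 ratio was 0.36 over the receptor genes and 0.35 over all genes. The medians were thus close. The count of higher genes depended on the cells taken, with 20 for cells of at least 500 genes, 22 for cells of at most 4000 genes and 20% mitochondrial UMIs, 7 with predicted doublets removed and 6 at a finer clustering. These counts stand without the share over all genes, so whether receptor genes moved more than other genes was not tested. Different clusters held most of the class at the 2 stages, the clusters named above at 60 hpf and at 28 hpf a cluster of 646 cells led by si:ch211-56a11.2 and calb2b. The delta receptor gene grid1b was at 6.76 (6.47 to 7.06) at 60 hpf and 0.294 (0.249 to 0.343) at 28 hpf, 23.0-fold higher, whereas its duplicate grid1a was at 0.0698 (0.0432 to 0.107) and 0.339 (0.291 to 0.392), 4.86-fold lower at 60 hpf. The NMDA receptor gene grin2da was at 1.08 (0.968 to 1.21) at 60 hpf and 0.113 (0.0862 to 0.145) at 28 hpf. For grin3a the levels were 0.761 (0.665 to 0.866) and 0.141 (0.111 to 0.177). gria2b, grin2aa, gria3a and glra1 were 4.13-, 2.33-, 2.29- and 2.03-fold higher at 60 hpf. The sparser gabra2a, gabrb2a, grin2ca, grm5b and grin3bb were 3.44-, 3.22-, 2.99-, 2.82- and 2.17-fold higher. grin1a, at 8.57 and 4.46, and glra3, at 6.23 and 3.93, stayed under 2-fold. Of 7 nicotinic genes tested 4 were lower at 60 hpf and none was higher. chrna2a was at 0.458 (0.385 to 0.542) at 60 hpf and 3.39 (3.23 to 3.55) at 28 hpf, a log2 ratio of -2.89 (-3.15 to -2.64). chrna5 was at 1.29 and 4.74, chrnb2 at 0.973 and 2.75 and chrna7 at 0.0698 and 0.215. The log2 ratio of chrna7, -1.62, turned to 0.40 with the 2 libraries clustered apart. The duplicate chrna2b was not called, at 1.29 at 60 hpf and 0.730 at 28 hpf. The other genes that were lower at 60 hpf were grin2bb, at 0.0631 and 0.184, and grin2ab, at 0.0332 and 0.0790. The hoxb13a-led cluster was present in both libraries, with 155 cells at 60 hpf and 53 at 28 hpf. Within it chrna5 was at 2.79 (2.41 to 3.20) at 60 hpf and 15.3 (13.9 to 16.7) at 28 hpf, grid1b at 4.37 (3.90 to 4.88) and 1.09 (0.748 to 1.53) and grin2db at 1.33 (1.08 to 1.63) and 5.47 (4.67 to 6.37). chrna2a and gria2b did not keep their direction there, in an alternative added after the data were seen, at 0.925 and 0.238 at 60 hpf and 0.560 and 0.264 at 28 hpf, nor did grin2ca, with a log2 ratio of -0.33. In that cluster 1 receptor gene was called higher at 60 hpf, again without the share over all genes. An unnamed cluster of 451 cells at 28 hpf, led by onecut3b and chrna2a, held chrna2a at 1.09 and chrna5 at 1.67, and it entered no comparison. Nor did an unnamed cluster of 611 cells at 28 hpf led by nkx2.2b and slc1a3a.

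**Figure D3:**
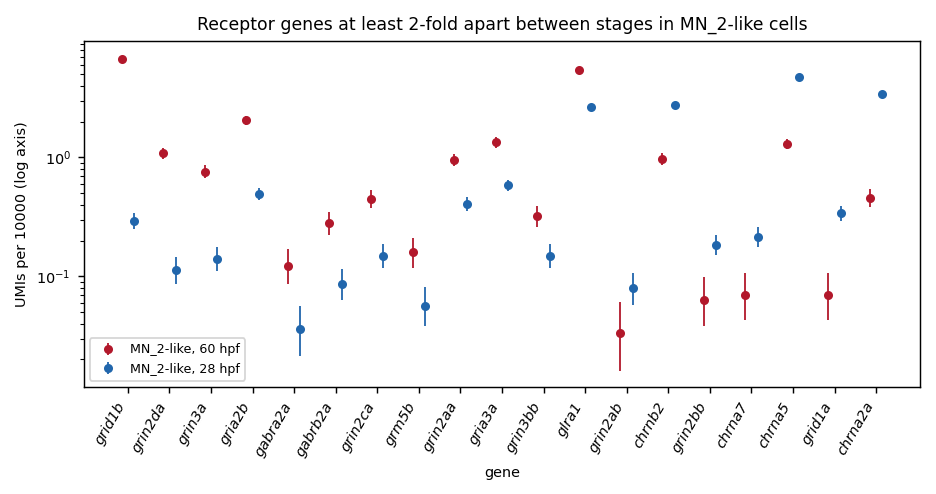
Levels of the 19 receptor genes called between stages in MN_2-like cells. Points give UMIs per 10000 on a log axis at 60 hpf (red) and 28 hpf (blue), and lines the 95% counting intervals. The 12 genes to the left, led by grid1b, were higher at 60 hpf, and the 7 to the right, which end with chrna2a, were lower.

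Receptors mix subunits, so the share of each gene in the UMIs of its kind was compared between classes, for the same gene each time. Shares of different genes are not set against each other, since genes may be captured unequally. Of the UMIs of the 7 GluN2 genes, grin2db held 39.7% (37.0 to 42.4) in MN_2-like cells at 60 hpf and 76.9% (75.1 to 78.7) at 28 hpf. At 60 hpf it held 16.2% (14.9 to 17.6) in MN_1-like and 32.7% (28.8 to 36.7) in V2b/KA-like cells. grin2da held 25.2% (22.8 to 27.6) in MN_2-like and 28.3% (26.6 to 30.0) in MN_1-like cells at 60 hpf. Its share in 28 hpf MN_2-like cells was 2.77% (2.12 to 3.55). grin2ca held 10.3% in MN_2-like, 0.533% in V2b/KA-like and 40.2% (38.4 to 42.0) in MN_1-like cells. grin2bb, the GluN2B gene, held 15.3% (12.4 to 18.5) in V2b/KA-like cells at 60 hpf and 35.8% (33.9 to 37.6) at 28 hpf. grin2aa held 38.5% (34.5 to 42.7) there at 60 hpf and 14.6% (13.2 to 16.0) at 28 hpf, and grin2ab 11.4% and 3.37%. The shares of grin2aa and grin2ab were higher, and that of grin2bb lower, in V2b/KA-like cells at 60 hpf, with intervals apart. Different clusters held most of this class at the 2 stages, a tac3a-led one with 232 of 342 cells at 60 hpf and 3 cells at 28 hpf, and 2 others with 694 and 631 of 1534 cells at 28 hpf and 34 and 7 cells at 60 hpf. Stage and cluster cannot be told apart in these shares.

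**Figure D4:**
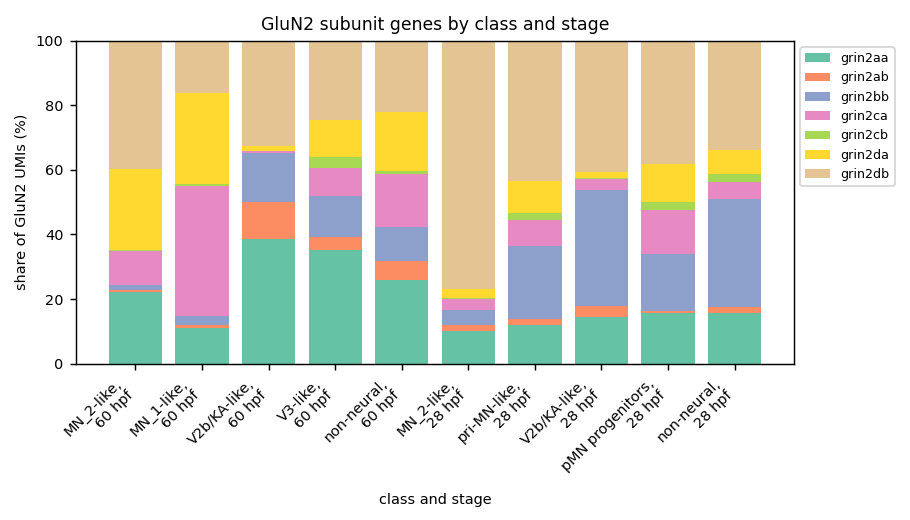
Share of each of 7 GluN2 genes in the GluN2 UMIs of a class (%), for classes with at least 100 such UMIs, with 60 hpf bars left of 28 hpf bars. Non-neural cells are shown as background. grin2db holds 39.7% in MN_2-like cells at 60 hpf and 76.9% at 28 hpf, and grin2ca 40.2% in MN_1-like cells.

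In other subunit groups the shares of the genes below also differed between classes at 60 hpf. Where a share is given at both stages, stage and cluster cannot be told apart, as above. Of the alpha subunit UMIs of GABA-A receptors, gabra4 held 80.8% (75.8 to 85.2) in V2b/KA-like cells at 60 hpf and 49.3% (45.1 to 53.5) at 28 hpf, against 0.186% and 0.139% in MN_2-like cells and 0.186% in MN_1-like cells. gabra3 held 64.7% (60.6 to 68.8) in MN_2-like and 80.6% (79.5 to 81.6) in MN_1-like cells at 60 hpf. Of the beta UMIs, gabrb4 held 81.2% in MN_2-like and 92.8% in MN_1-like cells. Of glycine alpha UMIs, glra3 made up 53.5% (51.8 to 55.2) in 60 hpf MN_2-like cells and 59.5% (57.9 to 61.1) in those of 28 hpf. It held 10.6% (10.1 to 11.2) in MN_1-like and 5.13% (2.49 to 9.23) in V2b/KA-like cells at 60 hpf, and 57.2% (54.5 to 59.9) in V2b/KA-like cells at 28 hpf. Of nicotinic alpha UMIs, chrna6 held 82.2% (73.3 to 89.1) in V2b/KA-like cells at 60 hpf, from 101 UMIs, and 21.4% (19.7 to 23.3) at 28 hpf, against 0.830% in MN_1-like cells at 60 hpf and 0.103% in MN_2-like cells at 28 hpf. chrna7 held 2.18% in MN_2-like and 50.9% (48.0 to 53.7) in MN_1-like cells.

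The V2b/KA marker list joins genes of V2b neurons, which inhibit other neurons of the cord, and of Kolmer-Agduhr cells, which touch the cerebrospinal fluid. Each main cluster of the class had sst1.1, pkd1l2a or urp1, the Kolmer-Agduhr genes of that list, among its leading genes. How many V2b neurons the class held was not tested. V2b/KA-like cells were compared with the pri-MN-like, MN_1-like and MN_2-like motor neurons pooled. At 60 hpf, which was added after the data were seen, 21 of 60 receptor genes were higher in V2b/KA-like cells and 23 lower, beside 17.6% and 13.7% of 13470 genes. At 28 hpf 13 of 60 were higher and 20 lower, beside 17.8% and 7.42% of 13754 genes. Of 57 genes tested at both stages, 11 were higher at both, 17 lower at both and 1 called in opposite directions. The motor neurons were mostly MN_1-like at 60 hpf and pri-MN-like at 28 hpf, and the V2b/KA-like cells came mostly from different clusters at the 2 stages, as given above. Most metabotropic glutamate receptor genes tested were higher in V2b/KA-like cells. At 60 hpf 7 of 8 were called higher and 1 lower, and at 28 hpf 5 of 9 were called higher and 1 lower. grm2a was at 1.58 (1.41 to 1.76) in V2b/KA-like cells and 0.0167 (0.0124 to 0.0221) in motor neurons at 60 hpf, and at 1.28 (1.23 to 1.34) and 0.0285 (0.0204 to 0.0388) at 28 hpf. The log2 ratios were 6.56 (6.12 to 7.02) at 60 hpf and 5.49 (5.04 to 5.98) at 28 hpf. grm3, whose product is of the same receptor group, was at 0.361 and 0.00171 at 60 hpf, from 75 and 5 UMIs, and at 0.0353 and 0.00499 at 28 hpf. grm6a was 48.5-fold higher at 60 hpf and 4.54-fold at 28 hpf, and grm4 2.66-fold at 60 hpf, with no call at 28 hpf. gabra4 was at 1.12 (0.979 to 1.27) in V2b/KA-like cells and 0.00410 (0.00212 to 0.00716) in motor neurons at 60 hpf, a log2 ratio of 8.09 (7.26 to 9.07), and at 0.164 and 0.00428 at 28 hpf, with 5.26 (4.12 to 6.72). gabrp, the gene of the GABA-A pi subunit, was 4.03-fold higher at 60 hpf and 30.1-fold at 28 hpf, where motor neurons held 2 UMIs. The GABA-B gene gabbr1b was at 3.60 (3.35 to 3.87) and 1.02 (0.985 to 1.06) at 60 hpf and at 2.44 (2.36 to 2.51) and 0.521 (0.484 to 0.561) at 28 hpf. Its partner gabbr2 was 2.12-fold higher at 60 hpf and was not called at 28 hpf. chrna6 was at 0.40 (0.319 to 0.496) in V2b/KA-like cells and 0.00342 (0.00164 to 0.00628) in motor neurons at 60 hpf, and at 0.258 (0.234 to 0.283) and 0.00856 (0.00442 to 0.0150) at 28 hpf. chrnb3a, an accessory subunit that joins alpha6 subunits in mammals, was 3.56-fold and 2.74-fold higher at the 2 stages. Of the NMDA genes, grin2bb was 11.8-fold higher at 60 hpf and 6.26-fold at 28 hpf, and grin2ab 26.6-fold at 60 hpf. The genes that were lower in V2b/KA-like cells at both stages included grin1a, at 0.116 (0.0741 to 0.172) against 2.47 (2.41 to 2.53) in motor neurons at 60 hpf and 0.241 (0.219 to 0.266) against 1.76 (1.69 to 1.83) at 28 hpf. The level of grin1a in non-neural cells without hemoglobin was 0.164 (0.135 to 0.198) at 60 hpf, so that of the V2b/KA-like cells was not above background. The duplicate grin1b was at 0.255 in V2b/KA-like cells and 0.201 in motor neurons at 60 hpf. glra3, glra1, gabra3, gabrb4, gabrg1, chrna2b, chrna7 and chrna5 were also lower at both stages. At 60 hpf glra3 was at 0.0482 against 1.13, gria2b at 0.0337 against 0.430, grin2ca at 0.0145 against 0.441, chrna2b at 0.00482 against 0.142, and chrna7 had no UMI against 635, which is at least 15-fold lower with a floor of 3 UMIs over the class. In non-neural cells without hemoglobin at 60 hpf, glra3 was at 0.0692, gria2b at 0.0572, grin2ca at 0.0256 and chrna2b at 0.0331. The V2b/KA-like levels of these genes were thus not above background either. At 28 hpf the folds of chrna2b, chrna7, grid1a, gabrg1 and grin3a were between 6.06 (grin3a) and 10.7 (chrna2b).

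**Figure D5:**
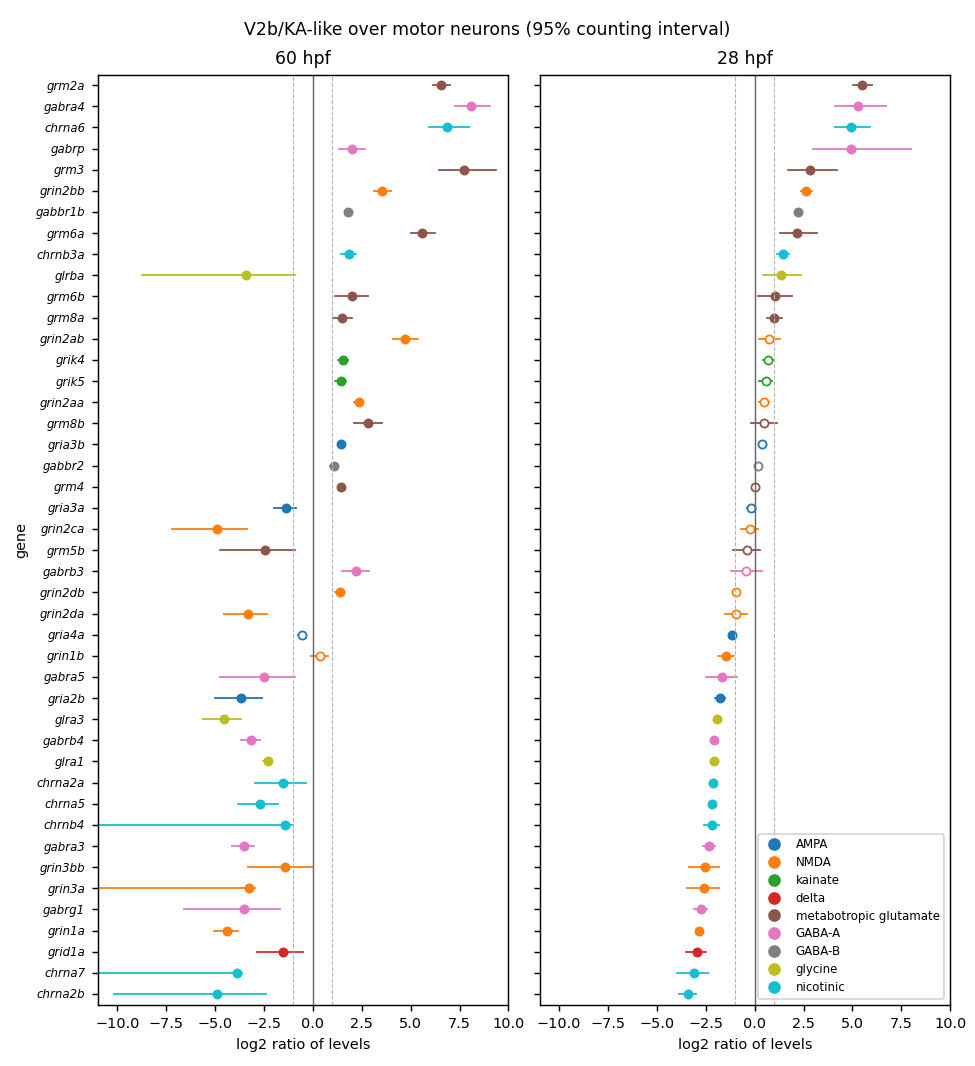
Log2 ratio of levels, V2b/KA-like cells over motor neurons, at 60 hpf (left) and 28 hpf (right), for receptor genes tested at both stages and called at either. Filled points are called, lines are 95% counting intervals, a line that reaches the left edge has no lower end because the V2b/KA-like cells held no UMI, and dashed lines mark 2-fold. grm2a, gabra4 and chrna6 lie far to the right in both panels, and glrba is filled on opposite sides.

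Within the V2b/KA-like class at 60 hpf, a cluster of 232 cells led by tac3a and nppc and a cluster of 69 cells led by urp1, urp2 and foxa2 differed in several genes. The second cluster had higher levels of grik4, a high-affinity kainate subunit gene, at 1.99 (1.58 to 2.48) against 0.559 (0.435 to 0.707), of grm8a at 0.932 (0.656 to 1.29) against 0.0486 (0.0178 to 0.106), and of grm8b at 0.580 against 0.00810. It had lower levels of grm4 at 0.806 (0.552 to 1.14) against 3.07 (2.77 to 3.39), of gria3b at 0.630 against 2.15, of gabbr2 at 0.353 against 1.74, and of grm6a at 0.0756 against 0.721. gabra4, grm2a, chrna6 and gabbr1b were high in both, at 1.69, 1.91, 0.378 and 4.49 in the urp1-led cluster and 1.22, 1.73, 0.510 and 4.0 in the tac3a-led one. The urp1-led cluster was also in the 28 hpf library, with 206 cells, where grik4 was at 1.03, gabra4 at 0.860 and grm8a at 0.477. In that cluster glra3 was at 0.0252 at 60 hpf and 0.715 at 28 hpf, grin2aa at 0.680 and 0.320, grin2bb at 0.353 and 0.232 and chrna6 at 0.378 and 0.349. These genes were picked after their values were seen.

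V3 neurons are excitatory interneurons, and the 5 V3 markers summed to 8.95 in V3-like cells and 0.159 in MN_2-like cells at 60 hpf. The 11 markers of other interneurons summed to 8.45 in V3-like cells and 0.216 in MN_2-like cells, so the class also held these. V3-like cells had the highest level of grm8a at 60 hpf, 1.1 (0.940 to 1.27), against 0.217 in V2b/KA-like and 0.110 in MN_2-like cells. chrna2a was highest there too, at 0.767 (0.637 to 0.917), against 0.458 in MN_2-like cells. gabbr2, at 1.59 (1.39 to 1.79), was above 1.31 in V2b/KA-like and 1.14 in MN_2-like cells with an interval that overlapped that of V2b/KA-like cells. These rankings are of whole classes. The hoxb13a-led MN_2-like cluster named above held chrna2a at a higher level than V3-like cells. The urp1-led V2b/KA-like cluster held grm8a with an interval that overlapped that of V3-like cells. The alpha subunit gene glra4a was at 0.152 (0.0975 to 0.226) in V3-like cells and at or under 0.0102 in both MN classes. At 28 hpf, with 77 cells, V3-like cells held chrna3 at 0.335 (0.213 to 0.503), against 0.0207 in MN_2-like and 0.00765 in V2b/KA-like cells, and chrnb4 at 0.467 (0.319 to 0.659), against 0.305 (0.260 to 0.356) in MN_2-like cells, with intervals that overlap. chrna3 and chrnb4 products assemble together in autonomic neurons of mammals.

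Cells of the oligodendrocyte lineage held most receptor genes at lower levels than motor neurons. Of 55 tested, none was higher in OPC/OL-like cells than in motor neurons and 40 were lower, beside 19.2% higher and 25.4% lower of 13432 genes, with median log2 ratios of -2.09 and -0.12. At 1.5-fold 1 gene was higher, and with a minimum of 20 UMIs 2 were. Hemoglobin took 5.04% of the UMIs of OPC/OL-like cells, and its part in the low levels was not tested. Among the genes with the most UMIs in them were grid1b, at 2.57 (2.38 to 2.78) in OPC/OL-like cells and 1.49 (1.45 to 1.54) in motor neurons, and gria4a, at 1.14 (1.01 to 1.28) and 1.42 (1.38 to 1.46). In non-neural cells without hemoglobin grid1b was at 0.163 and gria4a at 0.420. grik4 was at 0.303 (0.238 to 0.380) in OPC/OL-like cells and 0.269 in motor neurons, and gria1a, an AMPA subunit gene that was sparse in motor neurons at 0.00717, was at 0.109 (0.0719 to 0.159) from 27 UMIs. With 48 UMIs in both, gria1a was under the minimum and was not tested. At the other end, grin1a was at 0.0930 (0.0589 to 0.140) in OPC/OL-like cells and 2.47 in motor neurons, and glra1 at 0.158 (0.112 to 0.216) and 4.02. These are log2 ratios of -4.73 (-5.39 to -4.15) for grin1a and -4.67 (-5.16 to -4.22) for glra1. The levels in non-neural cells without hemoglobin were higher than those of OPC/OL-like cells, at 0.164 for grin1a and 0.284 for glra1. The folds of grin3a, gria3a, grin2ca, chrna2b, gabrb4, gabra3, gria4b and grm4 ran between 12.8 (grm4) and 34.5 (grin3a, on 1 UMI), each lower in OPC/OL-like cells. The MN_1 markers summed to 8.22 per 10000 in OPC/OL-like cells, 10.7 in mesenchyme-like and 2.63 in erythroid-like cells, and the part of free RNA in the low levels was not tested.

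Radial glia line the central canal and can give rise to neurons and glia. Of 61 genes tested 1 was higher than in neurons and 36 lower, beside 17.6% and 23.5% of 13870 genes, with medians of -1.80 and -0.26. grm6b was the higher one, on 7 UMIs in radial glia-like cells and 73 in neurons, with a log2 ratio of 1.75 (0.39 to 2.87). It was not called with at least 500 genes per cell or with at most 4000 genes and 20% mitochondrial UMIs. gria4a, at 0.972 (0.783 to 1.19) in radial glia-like cells and 1.38 in neurons, and grid1b, at 0.641 (0.489 to 0.825) and 1.48, were among the genes with the most UMIs in the class. grm4 was at 0.299 and 0.900. The log2 ratios of grin1a, glrbb, gria3b, chrna5, gabra3, glra1, grin2ca, grin3a, gria3a and gabrb4 were among the farthest below 0, with grin1a at -5.73. In non-neural cells without hemoglobin grin1a was at 0.164 (0.135 to 0.198), above its level in radial glia-like cells. As given above, 11 of 62 genes had an interval above background in this class.

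Muscle uses its own nicotinic receptor, of alpha1, beta1, delta and, in the embryo, gamma subunits. The sort held 80 muscle-like cells at 60 hpf and 21 at 28 hpf. At 60 hpf muscle-like cells had chrng at 0.0638 (0.0306 to 0.117), chrna1 at 0.0574 (0.0263 to 0.109), chrnd at 0.0383 and chrnb1 at 0.0191, and chrne, the gene of the subunit that takes the place of gamma in mature muscle, at 0.0702 (0.0350 to 0.126) from 11 UMIs. At 28 hpf the 21 cells had chrng at 0.924 (0.628 to 1.31), chrna1 at 0.865 (0.579 to 1.24), chrnd at 0.596 (0.364 to 0.921) and chrnb1 at 0.417 (0.228 to 0.70), from 31, 29, 20 and 14 UMIs. Neurons of that library held chrng at 0.00284, chrna1 at 0.00505, chrnd at 0.000316 and chrnb1 at 0.000316. None of these 5 genes reached 50 UMIs over muscle-like cells and neurons at either stage, so none was called. Of 61 receptor genes tested at 60 hpf, 1 was higher in muscle-like cells than in neurons, glra4a on 8 UMIs and 51, and 45 were lower, beside 12.7% and 48.2% of 14207 genes. Among the genes with the lowest ratios, grik4, chrna5, grin2da, grin3ba, chrna7, grid1a, gria3b, gabra5 and grm5b were sparse in muscle-like cells, and glra3 and grin1a were at 0.0766 and 0.185, against 1.03 and 2.28 in neurons.

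Duplicate genes could be compared class by class, as the share of the b copy in the UMIs of the pair. There were 13 pairs with both genes described at 60 hpf, and for 12 of them the classes with the highest and the lowest share had intervals apart. For 5 the share crossed 50% with both intervals clear of it. At 28 hpf 13 pairs gave a share, 12 of them in more than 1 class, with 8 apart and 3 that crossed 50%. The classes with the highest and the lowest share were picked from the values, and other gene pairs were not counted. The copies may be captured unequally, so a share of 50% does not mark equal RNA of both. The counting of reads that fit both copies was not tested. For gria2a and gria2b the b share was 10.9% (4.51 to 21.2) in V2b/KA-like, 82.5% (79.5 to 85.1) in MN_2-like, 49.5% (46.6 to 52.4) in MN_1-like and 88.2% (76.1 to 95.6) in pri-MN-like cells at 60 hpf, and 37.5% (32.9 to 42.3) in V2b/KA-like and 91.5% (86.7 to 95) in pri-MN-like cells at 28 hpf. For grin1a and grin1b it was 68.8% (57.3 to 78.9) in V2b/KA-like cells at 60 hpf, against 4.58% (3.83 to 5.44) in MN_2-like cells, and 16.0% (12.8 to 19.5) in V2b/KA-like cells at 28 hpf. For grin2da and grin2db it was 95.8% (92.0 to 98.2) in V2b/KA-like, 61.2% (57.8 to 64.5) in MN_2-like and 36.4% (33.8 to 39.1) in MN_1-like cells at 60 hpf. In 28 hpf MN_2-like cells it was 96.5% (95.5 to 97.3). For chrna2a and chrna2b the share was 73.8% (69.8 to 77.5) in MN_2-like and 16.0% (10.4 to 23.0) in V3-like cells at 60 hpf. In 28 hpf MN_2-like cells it was 17.7% (16.1 to 19.4). For gria3a and gria3b it was 91.4% (88.0 to 94.1) in V2b/KA-like cells at 60 hpf, against 47.4% (43.8 to 51.0) in MN_2-like cells. For grm6a and grm6b it was 13.4% (7.88 to 20.9) in V2b/KA-like and 67.5% (56.1 to 77.6) in MN_1-like cells. Some copies were not clearly above the level in non-neural cells without hemoglobin at 60 hpf. In V2b/KA-like cells these were gria2b on 7 UMIs, grin1a on 24 and grm6b on 16, and in MN_1-like cells grm6a on 26. The shares of these pairs thus rest in part on counts near background. gria4a held nearly all UMIs of its pair in each class, since the gria4b share stayed at or under 8.33%, the value in V3-like cells.

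Scaffold and auxiliary genes of the same synapses were read from lists drawn up with earlier results of these data known. Of the list for excitatory synapses, 14 of 24 tested were higher in MN_2-like than in MN_1-like cells and 3 lower, with a median log2 ratio of 1.11, beside 13.9% and 13.2% of all genes. The scaffold gene dlg2 was at 1.67 in MN_2-like and 0.286 in MN_1-like cells, dlg4a, the gene of PSD-95, at 0.608 and 0.192, and cacng8a, of the auxiliary subunits of AMPA receptors, at 0.977 and 0.0911. The lower ones were cnih2, cacng4b and homer3b, the last at 0.0332 and 0.210. Of the list for inhibitory synapses, 4 of 15 were higher and 1 lower, kctd12.1, an auxiliary gene of GABA-B receptors, with a median of 0.39. Both gephyrin genes were under 2-fold, with gphna at 1.94 and 1.81 and gphnb at 2.44 and 1.23. In neurons over progenitors at 28 hpf, 24 of 27 excitatory and 13 of 15 inhibitory genes were higher, with medians of 2.79 and 3.01, beside 25.9% of all genes and a median of 0.17. Of the excitatory genes, homer3b, at 0.101 in neurons and 0.247 in progenitors, and cacng4b, at 0.0338 and 0.0689, were lower. In OPC/OL-like cells over motor neurons, 1 of 24 excitatory genes was higher, neto2b, which codes for an auxiliary subunit of kainate receptors, at 0.259 and 0.0683, and 17 were lower, and of 15 inhibitory genes none was higher and 8 lower, beside 19.2% higher and 25.4% lower of all genes. Of the list for nicotinic assembly and endplates, 7 of 13 were found in the files, and 2 of 4 tested were higher in MN_2-like than in MN_1-like cells and none lower. They were colq, at 1.64 and 0.281, and ache, which is also on the list of MN_2 markers.

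The genes whose pattern over classes was most like a receptor gene were taken for the receptor gene with the most UMIs in each of 3 classes at 60 hpf, by Pearson's r of log2 levels over 24 points, each a class at a stage. The points share their 2 libraries, so r is a description. For grin1a, taken from MN_2-like cells, they were znf804a (r = 0.974), tppp2 (r = 0.963) and trarg1a (r = 0.962). For gabbr1b, taken from V2b/KA-like cells, they were sypb (r = 0.967), the gene of a synaptic vesicle protein, scg2b (r = 0.966) and gas7a (r = 0.966). For grid1b, taken from OPC/OL-like cells, they were shisa4 (r = 0.938), ENSDARG00000059529 (r = 0.910) and asb8 (r = 0.901). The 29 genes under 50 UMIs at both stages were 13 nicotinic, among them the 5 of muscle named above and chrna4a with 27 UMIs at each stage, 7 GABA-A, 3 metabotropic glutamate, 2 glycine and 1 each of the AMPA, NMDA, kainate and delta-interacting groups. Closest under the limit were glra2, with 49 UMIs at 60 hpf and 47 at 28 hpf, and gria1b, with 47 and 11. Closest above it were gabrz, with 50 UMIs at 60 hpf, and glra4a, with 51.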

How the data were processed

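Sorted olig2+ trunk cells of Tg(olig2:dsRed) zebrafish were sequenced with 10× Genomics 3′ kits, with 1 library at 60 hpf and 1 at 28 hpf. The authors deposited raw UMI counts per gene and cell, made with Cell Ranger (version 5.0.0, as recorded with the deposited counts). UMIs are 3′ tags, so a level is compared for the same gene between classes. No values of unmapped columns were present. A few of the receptor genes enter the counts but are not reported here by name or in the figures.

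Cells with at least 1000 genes were kept from both libraries and analysed together in scanpy 1.11.5 (Python 3.11.15). Clustering used 4000 variable genes without the receptor genes, 50 principal components, 15 neighbours and Louvain clustering in igraph 0.11.9 at resolution 1. Clusters were named from marker lists as X-like, and names rebuilt in this way may differ from those of the study. Doublets were predicted by simulation and removed in an alternative only.

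Levels are summed UMIs per 10000 with exact Poisson intervals, and ratios have exact conditional binomial intervals of 95% (SciPy 1.17.1). Shares have exact Clopper-Pearson intervals. A gene was tested with at least 50 UMIs over both classes and called at 2-fold with an interval off 0. A count of 0 in one class was set to a floor of 3 UMIs. With 1 library per stage no p-value was computed, and intervals cover counting error only. Per comparison, the rule was to name all called genes, or the 12 with the largest absolute log2 ratio where there were more. For levels it took up to 4 genes of each family, those with the most UMIs. Others named were picked after their values were seen. Counts of 12835 genes for MN_2-like over MN_1-like cells were simulated as Poisson counts, which the intervals also assume. Of these, 93 of 100 genes changed 3-fold and 95 of 100 changed 8-fold were called, as were 81 of 12642 unchanged genes. The simulation holds no variation between cells, clusters or libraries. It checks the calculation only and gives no error rate for the calls in these data. The members, marker lists and gene lists were chosen with earlier results of these data known.

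Alternatives changed the filter on cells, the doublets, the clustering, the fold and the UMI minimum. The V2b/KA-like comparison at 60 hpf and the alternatives that split a class into its clusters, and the background levels without hemoglobin or without erythroid-like cells, were added after the data were seen.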

Additional observations from a re-analysis of the deposited data

Results flagged for a closer look

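For glrba, the a copy of the glycine receptor beta gene, V2b/KA-like cells and motor neurons stood in opposite order at the 2 stages. At 60 hpf it was at 0.00482 UMIs per 10000 in V2b/KA-like cells and 0.0516 in motor neurons, a log2 ratio of -3.42 (-8.73 to -0.92) on 1 and 151 UMIs. At 28 hpf it was at 0.0236 in V2b/KA-like cells and 0.00927 in motor neurons, a log2 ratio of 1.34 (0.41 to 2.37) on 40 and 13 UMIs. Of the 151 motor neuron UMIs at 60 hpf, 141 came from MN_1-like cells, a class with no cell at 28 hpf. The motor neuron pools thus differed in their classes. In non-neural cells without hemoglobin, glrba was at 0.00903 (0.00331 to 0.0196) in the 60 hpf library. Its background level in the 28 hpf library was 0.00590 (0.00216 to 0.0128). The level of the lower class lay within the background interval at both stages. With 1 library per stage the difference between the stages was not tested.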

How the results depend on the processing

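Named ratios kept their direction in 1144 of 1149 values over all alternatives, and in 635 of 636 under the clustering alternatives that were planned. Most named ratios were chosen for their size in these data, and the alternatives use cells of the same 2 libraries. That most kept their direction is thus no independent support. In size, 970 of the 1149 stayed within the counting interval of the main value and 174 moved beyond it. The 5 followed ratios that turned were chrna7 in MN_2-like cells at 60 hpf over 28 hpf, with a log2 ratio of 0.40 with the libraries clustered apart, gria2b in MN_2-like over MN_1-like cells, at -0.037 in the hoxb13a-led cluster alone, and chrna2a, gria2b and grin2ca at 60 hpf over 28 hpf within that cluster, at 0.72, -0.15 and -0.33. Of the counts of receptor genes called, 236 stayed within 1.5 times the main count and 19 did not. Genes higher at 60 hpf than at 28 hpf in MN_2-like cells numbered 20 with at least 500 genes per cell, 22 with at most 4000 genes and 20% mitochondrial UMIs, 7 without predicted doublets, 6 at resolution 2 and 1 within the hoxb13a-led cluster. Of these, 12, 12, 7, 6 and 1 were among the 12 of the main count. Genes lower in MN_2-like than in MN_1-like cells numbered 4 at 1.5-fold, 1 over the gfra1a-led MN_1-like cluster, 4 for the col19a1-led and 4 for the hoxb13a-led MN_2-like cluster alone. Small counts moved as well. Genes higher in radial glia-like cells than in neurons numbered 0 with 500 genes per cell, 0 with at most 4000 genes and 20% mitochondrial UMIs and 2 at 20 UMIs. Genes lower in neurons than in progenitors at 60 hpf numbered 0 with at most 4000 genes and 20% mitochondrial UMIs, 0 with all variable genes and 2 at 20 UMIs. Genes higher in muscle-like cells than in neurons numbered 0 with at most 4000 genes and 20% mitochondrial UMIs and 2 at 20 UMIs, and genes higher in OPC/OL-like cells than in motor neurons 1 at 1.5-fold and 2 at 20 UMIs. Muscle-like cells at resolution 2 numbered 18 and were not compared. The cause of these changes was not tested. The counts under the alternatives stand without the share over all genes, so whether the changes are particular to receptor genes was not tested either. No paired analysis was possible because each stage has 1 library. Depth limits the small classes, such as the 94 progenitors and 80 muscle-like cells at 60 hpf.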
